A study of Homo sapiens with 6 samples.

Results

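The genes described here are 60 genes of ribosome biogenesis and RNA polymerase I (Pol I) transcription, chosen by name from the known parts of that pathway among the 28395 genes listed in the expression table. The choice was made with earlier results of these data known. All 60 were found in the table, and 59 had enough reads to be tested. Expression was measured by RNA-seq in HCC827, an established human lung adenocarcinoma cell line with an activating deletion in the kinase domain of EGFR, the epidermal growth factor receptor. Cells received the vehicle DMSO (3 libraries) or 1 μM erlotinib, an inhibitor of the EGFR kinase (3 libraries), and both groups were harvested after 24 h. The comparison asks which transcripts change when EGFR signaling is inhibited, in 1 cell line at 1 dose and 1 time. The labels do not say that the 3 libraries of a group came from separate cultures, so p-values measure the spread between these libraries, which may be technical.

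Ribosomes are assembled in the nucleolus. Pol I transcribes the long precursor of the ribosomal RNAs (rRNAs), small nucleolar ribonucleoproteins (snoRNPs) modify it at chosen bases, and a large set of assembly factors folds and cuts it while ribosomal proteins bind, giving the small and the large subunit. Most genes of these factors are transcribed by RNA polymerase II as ordinary mRNAs, and in growing cells they are known to be expressed together and to respond to growth factor signaling and to MYC.

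Each value is given as signal, the reads on a gene divided by the size factor of its library. The libraries held 20858083, 24641819 and 21172884 reads on genes with DMSO and 21944007, 20760204 and 21678395 with erlotinib. The DMSO libraries and the erlotinib libraries are named 1 to 3 within each group, and the numbers do not pair them. Fold changes were tested with limma on log2(signal + 1) across 14215 genes whose mean signal was 10 or more, and adjusted p-values are by the Benjamini-Hochberg method.

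Nearly the whole group was lower with erlotinib. Of the 59 tested members, 56 fell at an adjusted p-value under 0.05, which is 94.9% beside 35.4% of all tested genes. TAF1D, a subunit of the Pol I selectivity factor SL1, rose (35.3% of all tested genes rose). UBTF, the upstream binding factor of the rRNA gene promoter, and NOB1, the nuclease that makes the final cut at the end of 18S rRNA, did not pass the test. The median log2 fold change of the members was -1.15, against 0.02 for all tested genes. A fall of at least 1 log2 unit was seen in 39 members, while 10.8% of all tested genes fell that far. In 56 members the 3 erlotinib libraries lay below all 3 DMSO libraries, as in 36.9% of all tested genes. Since RNA was taken from whole cultures, a smaller share of cells expressing these genes and less of their RNA per cell cannot be told apart in these values.

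The members together took 0.839% ± 0.0189 of a library's signal with DMSO and 0.388% ± 0.00484 with erlotinib (mean ± SD, n = 3). NCL alone made up a large share of this sum. Without NCL, the other members took 0.673% with DMSO and 0.325% with erlotinib. The replicates of a group were close to each other for most members, with a median coefficient of variation of 6.66% among DMSO libraries and 4.82% among erlotinib libraries. The plot of all members shows that the spread between genes was far wider than the standard error of most single genes.

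**Figure D1:**
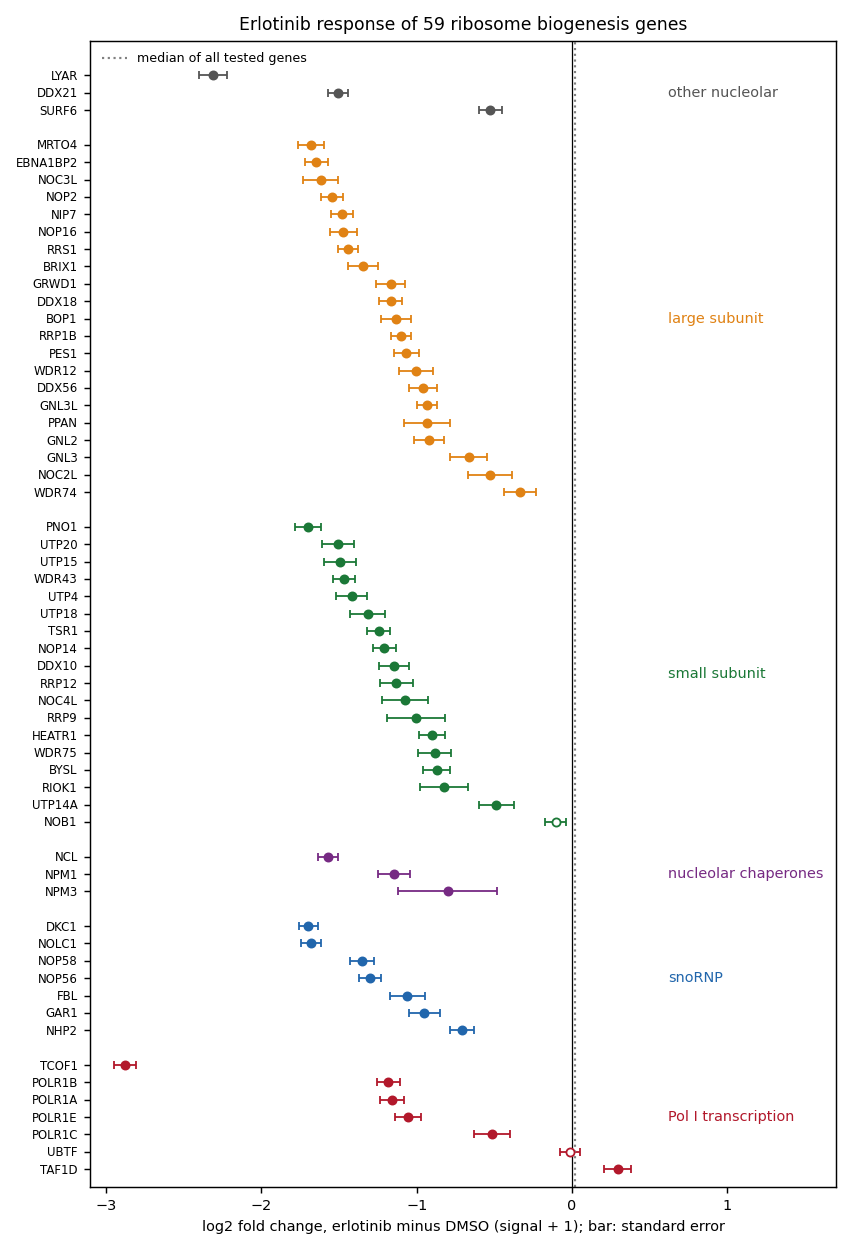
Log2 fold change (erlotinib minus DMSO, log2(signal + 1)) of the 59 tested members by role, with the standard error as a bar; filled points passed the test and open points did not. The points run from TCOF1 at -2.88 to TAF1D at 0.29, and the dotted line marks the median of all tested genes at 0.02.

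The DNA around the start sites of these genes was read from RefSeq (GRCh38.p14, 250 bases before to 50 bases after each start) to show what the members share that their choice did not use. A window was at hand for 51 of the 60 members. Not analysed here were BOP1, DDX18, NOLC1, NOP58, POLR1E, RRP12, RRP1B, RRS1 and TCOF1. The letters CACGTG, the E-box bound by MYC with MAX and by other basic helix-loop-helix factors, read the same on both strands. They were found in the window of 21 of the 51 members, or 41.2%. Such shares, here and for the motifs below, count only genes with a window. The share was 26.1% for a wider list of other ribosome biogenesis genes. It was 13.5% for 4082 genes that fell, 12.2% for 11130 tested genes and 8.77% for all genes. Of the 23 E-boxes of members, 18 began within 50 bases of the start site (78.3%), as did 642 of 1644 in all tested genes (39.1%). Such letters are a description of the DNA and not a site known to be bound in these cells.

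The E-boxes of 8 members that fell by at least 1 log2 unit and have a single window in the RefSeq table are given with 10 bases on each side, because they lie close to the start of that window's transcript. PES1 also has an annotated start farther upstream, where its gene begins, which was not searched. Each line gives the coordinates and strand, the sequence runs 5′ to 3′ along the gene, and capitals mark the E-box.
FBL (chr19:39846358-39846383, minus strand): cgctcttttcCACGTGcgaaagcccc
MRTO4 (chr1:19251809-19251834, plus strand): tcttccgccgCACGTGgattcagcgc
NOC3L (chr10:94362905-94362930, minus strand): gggacttcggCACGTGtgtcattccc
NOP14 (chr4:2963376-2963401, minus strand): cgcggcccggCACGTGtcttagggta
PES1 (chr22:30591882-30591907, minus strand): cttggcagggCACGTGcgggaggaag
PNO1 (chr2:68157887-68157912, plus strand): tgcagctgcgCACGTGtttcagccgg
RRP9 (chr3:51941894-51941919, minus strand): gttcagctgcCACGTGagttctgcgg
WDR43 (chr2:28894660-28894685, plus strand): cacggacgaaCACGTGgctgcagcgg

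The 100 bases before the start are shown for UTP4, UTP18 and UTP20, which encode parts of the small-subunit processome, the assembly that first forms on the rRNA precursor, because 2 of them hold a second motif. UTP18 has another E-box that begins 5 bases after the start and so lies outside the stretch. Capitals mark the E-box in all 3, and also ACTTCCGG in UTP4, the reverse strand of the ETS-type letters CCGGAAGT, and GCGCATGCGC in UTP18, which holds the NRF1-type letters GCGCATGCG on either strand.
UTP18 (chr17:51260446-51260545, plus strand): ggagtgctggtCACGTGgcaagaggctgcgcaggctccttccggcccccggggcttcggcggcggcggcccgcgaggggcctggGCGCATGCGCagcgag
UTP20 (chr12:101280005-101280104, plus strand): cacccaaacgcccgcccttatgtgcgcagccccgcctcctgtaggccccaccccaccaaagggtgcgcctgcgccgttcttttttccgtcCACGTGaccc
UTP4 (chr16:69132549-69132648, plus strand): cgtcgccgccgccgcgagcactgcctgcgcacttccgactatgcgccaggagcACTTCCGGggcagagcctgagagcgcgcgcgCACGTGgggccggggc

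The ETS-type letters CCGGAAGT, searched on both strands, were in 15 of the 51 members (29.4%), in 24.3% of the wider list and in 9.52% of all tested genes. The NRF1-type letters were in 4 members (7.84%, against 4.14% of tested genes), and the YY1-type letters AAGATGGCG also in 4 members (7.84%, against 4.49%). E-boxes were in 9 of 17 small-subunit members with a window, in 7 of 17 large-subunit members, in 2 of 5 snoRNP members and in all 3 other nucleolar members (LYAR, DDX21 and SURF6). They were in none of the 6 Pol I members with a window and in none of the 3 nucleolar chaperones, NCL and NPM1 among them. The DNA outside the windows was not searched. The median log2 fold change was -1.32 for the 21 tested members with an E-box and -1.01 for the 29 without one, and both groups covered a wide range. Members without a window are in neither group, and their log2 fold changes ran from -1.05 (POLR1E) to -2.88 (TCOF1). The part of E-boxes in the fall of the members was not tested.

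Pol I members fell unevenly. Of the 7 tested, 5 fell (71.4%, beside 35.4% of all tested genes), 1 rose (14.3%, beside 35.3%) and 1 did not pass, with a median log2 fold change of -1.05. TCOF1 (Entrez 6949, chr5:150357697-150400293, GRCh38) encodes treacle, a nucleolar protein that holds Pol I and UBTF at the rRNA genes. Its signal was 7477, 6564 and 6982 in the DMSO libraries and 937, 953 and 968 in the erlotinib libraries. The groups were far apart, and erlotinib left 13.6% of the DMSO mean (log2 fold change -2.88 ± 0.0708 SE, adjusted p = 7.5e-18, limma). No other member had a lower log2 fold change in this comparison.

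The catalytic core followed at a smaller size. POLR1B, the second largest subunit of Pol I, had a signal of 2466, 2488 and 2346 with DMSO and 1022, 1151 and 1046 with erlotinib. Its groups did not overlap (log2 fold change -1.18 ± 0.0767 SE, adjusted p = 1.9e-11, limma). POLR1A, the largest subunit, and POLR1E, a subunit particular to this polymerase, also fell, with log2 fold changes of -1.16 and -1.05. POLR1C, a subunit shared by Pol I and Pol III, fell by 0.52 on that scale. It overlaps XPO5, whose log2 fold change was -1.13.

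UBTF and TAF1D stood apart from these subunits. UBTF (chr17:44205040-44221304) had a signal of 3606, 3312 and 3309 with DMSO and 3332, 3376 and 3422 with erlotinib. The groups overlapped, and the log2 fold change was -0.01 with a 95% interval that reached up to 0.13 (adjusted p = 0.873, limma). TAF1D (chr11:93730194-93741495) had a signal of 1031, 1106 and 917 with DMSO and 1283, 1208 and 1246 with erlotinib. All 3 erlotinib libraries were higher (log2 fold change 0.29 ± 0.0866 SE, adjusted p = 0.00486, limma). TAF1D hosts snoRNAs in its introns and overlaps CEP295, so reads of these genes could enter its count. SNORA40, the most abundant of the snoRNAs, had a mean signal of 202, and its log2 fold change was -0.64, while that of CEP295 was -0.56.

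RRN3, the initiation factor that joins Pol I to the promoter, could not be tested. It had 1 read in DMSO library 2 and 0 in the other 5 libraries. A copy of RRN3 covers 100% of its transcript at 100% identity on an alternate contig of the genome, and only uniquely mapped reads were counted. RRN3P3, a relative of RRN3, had 87 to 150 reads per library and a log2 fold change of -0.56. RRN3P1, another relative, had 2 to 11 reads.

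Of the Pol I genes outside the 60, 7 were tested, of which 4 fell (57.1%, beside 35.4% of all tested genes), 2 rose (28.6%, beside 35.3%) and 1 did not pass. CD3EAP, a Pol I subunit also known as POLR1G, had a signal of 758, 672 and 739 with DMSO and 200, 176 and 184 with erlotinib. The groups were well separated (log2 fold change -1.95, adjusted p = 5.1e-12, limma). TAF1C, another subunit of SL1, had a signal of 1965, 1919 and 2318 with DMSO and 3363, 2998 and 3008 with erlotinib, and it rose by 0.60 log2 units (adjusted p = 1.2e-06, limma). POLR1D, a subunit shared with Pol III, rose by 0.24, but did not pass without erlotinib library 1. TAF1A and TAF1B of SL1 fell (log2 fold changes -1.35 and -0.43), as did TWISTNB, the Pol I subunit also known as POLR1F (-0.95). TTF1, the termination factor of Pol I, had a log2 fold change of -0.01 and did not pass the test. Of these SL1 subunits, TAF1C and TAF1D were higher and TAF1A and TAF1B lower, but TAF1B no longer passed without erlotinib library 3 (-0.31) or with libraries scaled to their total count (-0.25).

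**Figure D2:**
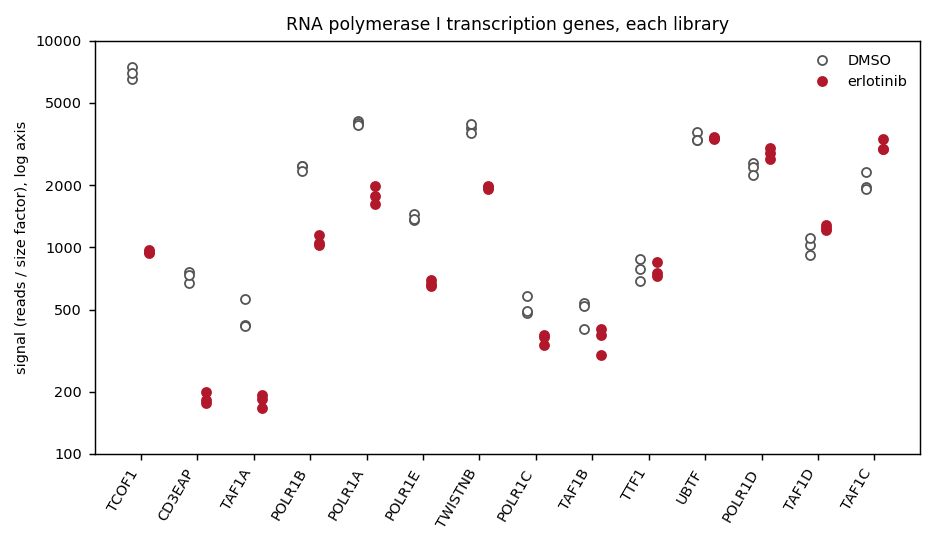
Signal of 14 genes of Pol I transcription in each library, on a log axis, with open circles for the 3 DMSO libraries and filled circles for the 3 erlotinib libraries. TCOF1 and CD3EAP show the widest gaps, UBTF and TTF1 overlap, and POLR1D, TAF1D and TAF1C are higher with erlotinib.

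The rRNA itself was not measured. The libraries were made from RNA bound to oligo(dT) beads, and RNA45SN5, RNA18SN5, RNA28SN5 and RNA5-8SN5 were listed at 0 reads in all 6 libraries. Of other noncoding RNAs kept beside them, RN7SL1 of the signal recognition particle had a log2 fold change of -0.14 and did not pass, except without DMSO library 2 (-0.41), and RN7SK, which holds back an elongation factor of RNA polymerase II, rose by 0.92 log2 units. Reads of RN7SL1 and RN7SK also come from RNA bound to oligo(dT) beads, so they need not follow the amounts in the cells.

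All 7 snoRNP members fell (beside 35.4% of all tested genes), with a median log2 fold change of -1.30. DKC1 (chrX:154762864-154777689), the enzyme of the snoRNPs that turn uridine into pseudouridine and also a part of telomerase, had a signal of 8568, 8750 and 8225 with DMSO and 2649, 2613 and 2608 with erlotinib. The groups did not overlap and 30.8% of the DMSO mean was left (log2 fold change -1.70 ± 0.0627 SE, adjusted p = 2.4e-15, limma). NOLC1, a chaperone that shuttles snoRNPs to the nucleolus, had a signal of 9919, 10197 and 9237 with DMSO and 2969, 3054 and 3138 with erlotinib. Again no library crossed between the groups (log2 fold change -1.68, adjusted p = 4.5e-15, limma).

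FBL, the methyltransferase of the other snoRNP class, and its partners NOP56 and NOP58 fell, with log2 fold changes of -1.06, -1.30 and -1.35. FBL was more variable than these partners, with a signal of 1455, 1056 and 1455 in the DMSO libraries and 612, 696 and 578 in the erlotinib libraries. FBLL1, a relative of FBL, had a log2 fold change of 0.15 and did not pass. GAR1 and NHP2, which sit in the same snoRNPs as DKC1, fell with log2 fold changes of -0.95 and -0.71. NHP2 had the smallest change of the group, with a signal of 1695, 1755 and 1709 with DMSO and 1069, 999 and 1094 with erlotinib. A near-identical copy of the NHP2 transcript lies on chromosome 10 (95.6% covered, 97.6% identity), so part of its reads may have been lost as not unique. The log2 fold changes of these 3 subunits of the pseudouridine snoRNP ran from -0.71 to -1.70.

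Among the nucleolar chaperones, NCL was the most abundant member per transcript length, at 9756 signal per kilobase with DMSO and 3285 with erlotinib. NCL (chr2:231453531-231464484) encodes nucleolin, an RNA-binding protein that coats the rRNA precursor. Its signal was 40184, 38018 and 36640 with DMSO and 12394, 13670 and 12610 with erlotinib. Every erlotinib library was far below every DMSO library (log2 fold change -1.57 ± 0.0649 SE, adjusted p = 1.4e-14, limma).

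NPM1, nucleophosmin, which stores and escorts ribosomal proteins in the nucleolus, was second per length at 4870 signal per kilobase with DMSO and 2163 with erlotinib. Its signal was 5363, 8142 and 5779 with DMSO, with DMSO library 2 above the others, and 3005, 2734 and 2825 with erlotinib. The groups did not overlap (log2 fold change -1.15, adjusted p = 4.3e-09, limma), and without DMSO library 2 the log2 fold change was -0.96. NPM1 has a near-identical copy elsewhere on chromosome 5. NPM3, a relative of NPM1, was scarce, at 38.6, 86.4 and 66.4 with DMSO and 32.3, 29.7 and 42.1 with erlotinib. One DMSO library lay within the erlotinib range, and the fall of 0.80 on the log2 scale passed narrowly (adjusted p = 0.0303, limma). Without DMSO library 2 it was -0.55 and no longer passed. NPM2, another relative, was scarcer still, at 20.4, 17.6 and 20.3 with DMSO and 43.4, 65.3 and 37.4 with erlotinib, and it rose by 1.24 log2 units (adjusted p = 0.00332, limma).

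Of the 18 small-subunit members, 17 fell (94.4%, beside 35.4% of all tested genes), with a median log2 fold change of -1.14. PNO1 (chr2:68157888-68176238), which guides NOB1 to the end of 18S rRNA, had a signal of 2406, 2534 and 2104 with DMSO and 705, 752 and 703 with erlotinib. The groups were well apart (log2 fold change -1.70 ± 0.0848 SE, adjusted p = 2.7e-13, limma). NOB1 (chr16:69741871-69754926), its partner, had a signal of 3014, 2992 and 2954 with DMSO and 2639, 2923 and 2774 with erlotinib. Its erlotinib libraries were all slightly lower, but the log2 fold change of -0.11 did not pass (adjusted p = 0.173, limma). The 95% intervals of the pair did not meet: that of NOB1 ran from -0.25 to 0.04, and that of PNO1 reached up to -1.52.

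UTP20, a giant scaffold protein, had a signal of 1497, 1931 and 1612 with DMSO and 550, 546 and 672 with erlotinib. All 3 erlotinib libraries were lower (log2 fold change -1.51, adjusted p = 5e-11, limma). UTP15, WDR43 and UTP4, of the subcomplex that binds the 5′ end of the precursor, had log2 fold changes of -1.49, -1.47 and -1.42. HEATR1 and WDR75 of the same subcomplex fell less, at -0.90 and -0.88. UTP18 was at -1.32, NOP14 at -1.21, DDX10, an RNA helicase, at -1.15, NOC4L at -1.08 and RRP9, which binds the U3 snoRNA, at -1.01.

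UTP14A, which activates a helicase of the processome, fell by 0.49 on the log2 scale. Its relative UTP14C, a retrogene, had 1959 to 2512 reads per library and a log2 fold change of -0.25, and the reads of the pair could have been divided. TSR1, RRP12, BYSL and RIOK1, which like NOB1 act on the small-subunit precursor during its maturation and export, fell with log2 fold changes of -1.25, -1.13, -0.87 and -0.83.

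All 21 large-subunit members fell (beside 35.4% of all tested genes), with a median log2 fold change of -1.13. MRTO4 (chr1:19251805-19260128), which holds the place of a stalk protein on the precursor, had a signal of 3044, 2910 and 2799 with DMSO and 848, 1036 and 855 with erlotinib. The groups did not overlap (log2 fold change -1.68 ± 0.0848 SE, adjusted p = 3.2e-13, limma). EBNA1BP2 (chr1:43164174-43172570), an early assembly factor, had a signal of 4622, 3960 and 4341 with DMSO and 1408, 1351 and 1357 with erlotinib. It too was separated in every library (log2 fold change -1.65, adjusted p = 4.6e-14, limma).

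PES1, BOP1 and WDR12 form the PeBoW complex, which is needed to process the precursor of the large-subunit rRNAs. Their log2 fold changes were -1.07, -1.13 and -1.01. BOP1 was variable among DMSO libraries, at 2676, 1888 and 2303, but stayed above the 1027, 1059 and 1013 of the erlotinib libraries. NOC3L and NOC2L, partners in 1 complex of early assembly, were at -1.62 and -0.53. NOP2, an rRNA methyltransferase, was at -1.54, NIP7 at -1.48 and NOP16 at -1.47. RRS1, which takes part in building in the 5S particle, was at -1.44, and the assembly factor BRIX1 at -1.35.

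GRWD1 and DDX18 had log2 fold changes of -1.17 each, RRP1B of -1.10, DDX56 of -0.96 and PPAN of -0.93. P2RY11, which overlaps PPAN, had a log2 fold change of -0.38 and did not pass. DDX18 and DDX56 are RNA helicases. Among the nucleolar GTPases, GNL3L and GNL2 were at -0.94 and -0.92 and GNL3, nucleostemin, at -0.67. WDR74 (chr11:62832905-62841809) had the smallest change of the large-subunit members, with a signal of 575, 537 and 610 with DMSO and 436, 446 and 482 with erlotinib. The groups did not overlap, and the log2 fold change was -0.34 (adjusted p = 0.00697, limma). With libraries scaled to their total count it was -0.16 and did not pass.

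The other nucleolar members fell too. LYAR (chr4:4267701-4290154), a nucleolar regulator of cell growth, had a signal of 1708, 2010 and 1775 with DMSO and 360, 379 and 362 with erlotinib. The groups were far apart, with 20.1% of the DMSO mean left (log2 fold change -2.31 ± 0.0917 SE, adjusted p = 7.1e-15, limma). DDX21 (chr10:68956170-68985068), a helicase that links Pol I with rRNA processing, had a signal of 11928, 12905 and 11314 with DMSO and 4212, 4217 and 4251 with erlotinib. Its erlotinib libraries were nearly equal (log2 fold change -1.51, adjusted p = 2.4e-14, limma). SURF6, with a signal of 3050, 2865 and 2958 with DMSO and 1879, 2155 and 2131 with erlotinib, fell by 0.53 on the log2 scale with no overlap between the groups.

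**Figure D3:**
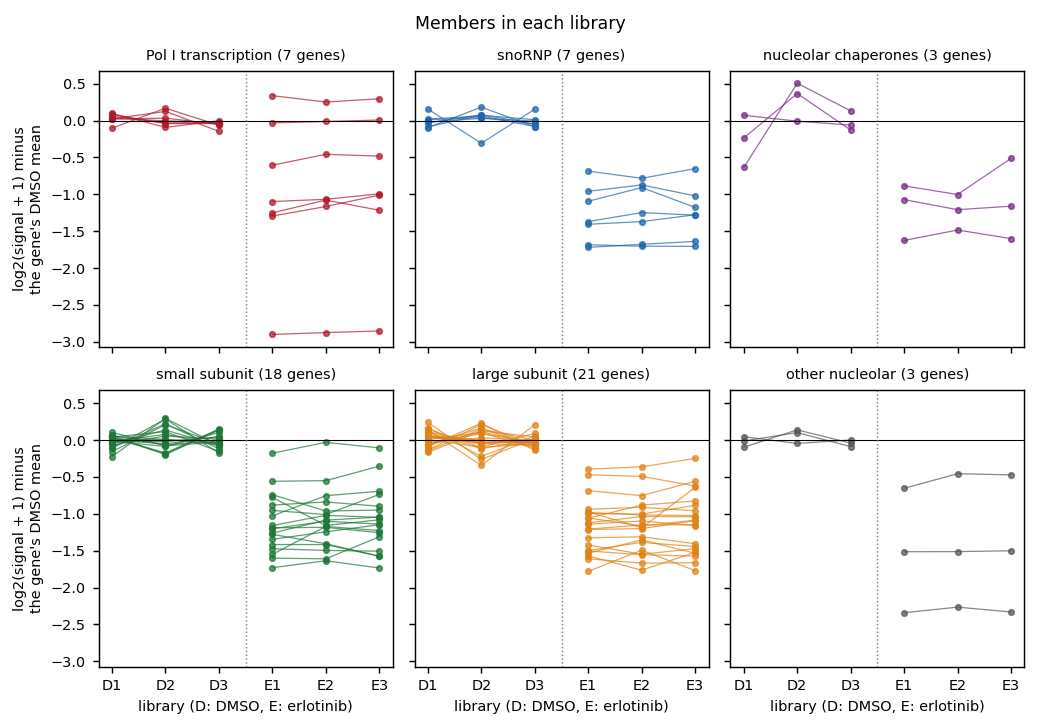
Each member's log2(signal + 1) in each library minus its DMSO mean, in 6 panels by role, with D1 to D3 the DMSO and E1 to E3 the erlotinib libraries; lines join values of the same gene and imply no order. DMSO values lie near 0, most widely spread for NPM3 and NPM1, and the erlotinib values lie below them for all genes but UBTF, TAF1D and, in 1 library, NPM3.

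The falls did not rest on 1 library. Leaving out each library in turn left 55 or 56 members lower, with a median log2 fold change between -1.17 and -1.12. DMSO library 2 was the highest of its group for 30 of the 59 members (50.8%), and for 41.7% of all tested genes. Overlap with another tested gene was found for 18 members, among them EBNA1BP2, NOC3L, NOP56, TSR1, UTP18, NOP14, HEATR1, GRWD1, BOP1 and PPAN. For GNL3, POLR1C and UTP18 the overlapping gene had a higher mean signal than the member. These genes were GLT8D1, XPO5 and MBTD1, with log2 fold changes of 0.21, -1.13 and 0.89. MED20, which overlaps BYSL, had a mean signal of 996 beside 1043 for BYSL, and its log2 fold change was -0.31. With the 19 tested members left out that have a near-identical copy or such an overlap, 38 of the other members were lower and none was higher, with a median of -1.15.

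Most genes of the wider pathway fell too. A list of 132 other ribosome biogenesis genes, also chosen with earlier results of these data known, held 124 that were tested. Of these, 113 fell (91.1%, beside 35.4% of all tested genes), 4 rose (3.23%, beside 35.3%) and 7 did not pass, with a median log2 fold change of -0.84. All 11 tested snoRNP genes and all 16 genes of the RNA exosome and rRNA trimming fell, as did 35 of 38 small-subunit and 47 of 52 large-subunit genes. The lowest after CD3EAP were CCDC86 (-1.76), URB2 (-1.74) and EMG1 (-1.72), an rRNA methyltransferase whose signal was 1571, 1440 and 1511 with DMSO and 465, 471 and 433 with erlotinib. Beside TAF1C and POLR1D, the genes that rose were NOP53 (0.85) and EFL1 (0.55), a GTPase that frees a late factor from the large subunit. NOP53, a late large-subunit factor, had a signal of 361, 235 and 274 with DMSO and 510, 544 and 497 with erlotinib, so its groups did not overlap.

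The ribosomal proteins, the cargo of these factors, fell in a share near that of all genes. Of 76 tested genes, 31 fell (40.8%, beside 35.4% of all tested genes), 6 rose (7.89%, beside 35.3%) and 39 did not pass, with a median log2 fold change of -0.22. Their summed signal was 96597 with DMSO and 91881 with erlotinib, which is 0.419% and 0.451% of a library's signal, so the direction of the sum depended on the scaling. The members' summed signal was 193520 and 78975, lower with erlotinib on both scales. RPL17 and RPS14 had the lowest log2 fold changes of the large-subunit and small-subunit proteins, -1.50 and -1.32, and RPL13A and RPS29 the highest, 0.65 and 0.89. Many ribosomal protein genes have processed pseudogenes, which can take reads from them when only unique reads are counted.

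**Figure D4:**
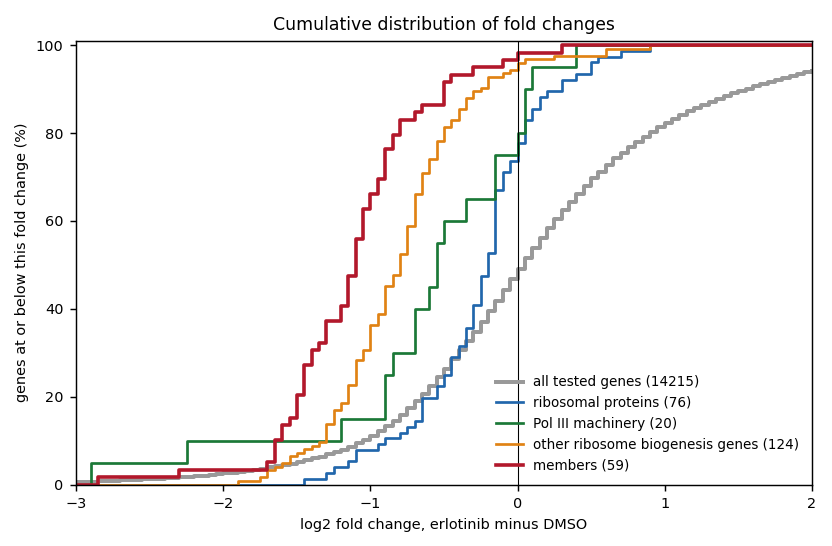
Share of genes (percent) at or below each log2 fold change, for the 59 members, 124 other ribosome biogenesis genes, 20 genes of the Pol III machinery, 76 ribosomal proteins and all 14215 tested genes. The members' curve lies farthest left at its middle, with a median of -1.15, followed by the wider list at -0.84, while ribosomal proteins center near -0.22 and all genes near 0.02.

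MYC, the regulator that binds E-boxes, had a signal of 13274, 12790 and 14199 with DMSO and 10868, 10752 and 11264 with erlotinib. The groups did not overlap and the log2 fold change was -0.29 (adjusted p = 0.00033, limma), but with libraries scaled to their total count it was -0.11 and did not pass. Proliferation genes moved with the members: all 12 fell (beside 35.4% of all tested genes). Their median log2 fold change was -2.68, from RRM2 at -4.14 to MCM5 at -2.17. MKI67, a marker of cycling cells, had a signal of 11888, 11225 and 10567 with DMSO and 1614, 1555 and 1797 with erlotinib. The part of the lower proliferation markers in the fall of the members was not tested.

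Markers of the labelled cell type were present. Of 10 epithelial and lung markers, 9 were tested, of which 5 fell (55.6%, beside 35.4% of all tested genes), 2 rose (22.2%, beside 35.3%) and 2 did not pass, and SFTPB, a surfactant protein of alveolar cells, was too scarce (mean signal 8.23 with DMSO). KRT7, a keratin of glandular epithelium, was the most abundant marker, with a mean signal of 123686 with DMSO and 79897 with erlotinib, and the other keratins of the list and EGFR fell too. NKX2-1, a transcription factor of lung epithelium, rose from 3002 to 8644 and NAPSA, an aspartic protease of alveolar cells, from 986 to 3733 (log2 fold changes 1.53 and 1.92), while the epithelial adhesion genes EPCAM and CDH1 did not pass (CDH1 passed in 6 of 15 alternatives). The part of these marker changes in the fall of the members was not tested. Of the markers of other cell types, 6 of 7 for fibroblasts, 5 of 7 for leukocytes and 4 of 5 for endothelium had at most 20 reads in every library. CD68 was the most abundant leukocyte marker (mean signal 2898 with DMSO and 3394 with erlotinib) and COL1A1 the most abundant fibroblast marker (77.7 and 216). Of the endothelial markers, PECAM1 was the most abundant with DMSO (15.7 and 10.4) and VWF with erlotinib (3.94 and 27.5). PECAM1 had a log2 fold change of -0.55 and did not pass. CD68, COL1A1 and VWF were higher with erlotinib, with log2 fold changes of 0.23, 1.47 and 2.75 (adjusted p = 0.00762, 6.8e-07 and 0.00066, limma). Without erlotinib library 2, CD68 did not pass (0.20). The part of these markers in the fall of the members was not tested.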

How the data were processed

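The data are 6 RNA-seq libraries of HCC827 cells. The authors enriched mRNA with oligo(dT) beads, mapped reads to GRCh38 with Bowtie2 (version 2.3.4), counted unique reads on genes with featureCounts (1.6.3) and used DESeq2 (1.18.1), per the submitters' processing notes and the study's methods. Whether the counting used strand is not given in the sources used here. The deposited values are signal, which behave as read counts divided by 1 size factor per library (0.882 to 1.08): 100% of values became whole reads, within 0.001 read, when divided by the smallest step of their library. The division itself is not stated by the authors. Columns of erlotinib libraries name the group but not which sample.

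Genes whose mean signal was 10 or more were tested with limma (3.58.1, trend) on log2(signal + 1), two-sided, with Benjamini-Hochberg adjustment over 14215 genes and a threshold of 0.05. Fold changes on this scale understate those of scarce genes. Replicates differed by more than sampling noise (chi-square over degrees of freedom 4.13 to 24.3). The script was tested on simulated data. The members, gene lists and tests were chosen with earlier results of these data known. Named in full were, per role, the 2 lowest and the highest member, members that rose or were not called, the 4 with the highest mean signal, the 4 lowest and 4 highest of the wider list, MYC, MKI67 and the lowest and highest of context lists. Other genes were named for their role or for a variable library after their values were seen. Alternatives were edgeR (4.0.16) and DESeq2 (1.42.0) on the recovered reads, TMM factors, scaling to the total count, pseudocounts of 0.1 and 10, no filter, each library left out, a threshold of 0.01, a minimum of 10 reads per library, and members without copies or overlaps. Copies were sought by aligning transcripts of GENCODE 44 to the genome with minimap2 (2.31-r1302), with at least 90% covered at 97% identity. Promoter windows were RefSeq's. Protein sequences were not analysed here. Software was R 4.3.3, Python 3.11.15 and matplotlib 3.10.9.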

Additional observations from a re-analysis of the deposited data

How the results depend on the processing

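The fall of the members kept its direction under every alternative run: 54 to 56 were lower on all members, and 38 where members with a copy or an overlap were left out. Of the 56 lower members, 54 passed in all 15 alternatives that gave a value per gene; the exceptions were NPM3, which missed the threshold in 7, and WDR74, in 1. Scaling to the total count moved the median of all tested genes from 0.02 to 0.19. It gave a members' median of -0.97, and 2 members higher instead of 1 (UBTF was 0.167, beside TAF1D), while NOB1 was 0.074 and RN7SL1 0.039. With that scaling TAF1D was 0.474, UTP14A -0.308, NOC2L -0.350, POLR1C -0.336 and SURF6 -0.348, each still past the threshold. Without members that have a copy or an overlap, 0 were higher, since TAF1D was left out by construction. UBTF, never far from 0, was 0.0032 with TMM factors and between -0.034 and 0.029 with a library left out. RN7SL1 ranged from -0.41 to 0.024 with a library left out, and it passed as lower at -0.41, without DMSO library 2. With a library left out, NOB1 ranged from -0.142 to -0.069, P2RY11 from -0.523 to -0.252 and POLR2I, of RNA polymerase II, from -0.245 to -0.097. None of these passed. The fall of RRN3P3 missed the threshold in 5 alternatives, that of UTP14C under total-count scaling (-0.07), and the rise of POLR1D without erlotinib library 1 (0.20). TTF1, FBLL1, MAX and EPCAM, none of which passed in the main test, changed sign. TTF1 was 0.0062 with TMM factors, 0.170 under total-count scaling and -0.101 to 0.0756 with a library left out. FBLL1 was -0.372 to 0.420 and MAX -0.0247 to 0.0469 with a library left out, and EPCAM was 0.125 under total-count scaling. Under that scaling MAX was 0.2025 and passed as higher. The cause was not tested. Over all genes, 3955 to 5096 were lower and 4323 to 6156 higher. No paired analysis was possible because the columns of the erlotinib libraries carry no replicate number found in the labels. Counting precision was low for NPM3 (30 reads in its lowest library).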

Other observations

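Of 20 tested genes of the RNA polymerase III machinery, which makes 5S rRNA and tRNAs, 14 fell (70%, beside 35.4% of all tested genes), 1 rose (5%, beside 35.3%) and 5 did not pass, with a median log2 fold change of -0.58. POLR3G, a Pol III subunit typical of stem and tumor cells, had a signal of 1341, 1666 and 1311 with DMSO and 210, 165 and 193 with erlotinib, a log2 fold change of -2.92 (adjusted p = 1.1e-14, limma). MAF1, the repressor of Pol III, rose by 0.37 log2 units (adjusted p = 0.00429, limma), and by 0.19 without DMSO library 2, where it still passed. Of the 7 subunits specific to RNA polymerase II, 6 fell (85.7%, beside 35.4% of all tested genes), with a median of -0.43, from POLR2D at -1.38 to POLR2I at -0.19, which did not pass.

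The genes around MYC and its partner MAX were mixed: of 9, 3 fell (33.3%, beside 35.4% of all tested genes), 3 rose (33.3%, beside 35.3%) and 3 did not pass. Of the known repressors among them, MXD4, MXI1 and MNT rose, MXD1 and MXD3 did not pass, and MGA fell, a call lost without erlotinib library 1 or 2 (-0.25 and -0.20) and under total-count scaling (-0.10). That scaling put MAX, MXD1 and MXD3 past the threshold as higher. MLX had the lowest log2 fold change of the list, -0.52, and was -0.341 under total-count scaling, where it still passed. MXD4 had a signal of 855, 618 and 868 with DMSO and 4438, 4544 and 4503 with erlotinib, a log2 fold change of 2.54 (adjusted p = 6.6e-15, limma). MXI1 rose from 681, 730 and 609 to 1825, 1988 and 1843, and MNT from 1334, 1250 and 1305 to 2952, 2891 and 2971. In both, all 3 erlotinib libraries were above all DMSO libraries, with 280% of the DMSO mean for MXI1 and 227% for MNT.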
